A study of Mus musculus with 454 samples.

Results

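Genes of thyroid hormone signalling were followed through a mouse brain RNA-seq series: the receptor genes Thra and Thrb, the deiodinase genes Dio2 and Dio3, the transporter gene Slco1c1 and the target gene Hr. They were taken by symbol, mapped from the Ensembl identifiers of the count table, and all 6 of the 43346 genes in that table were found. Libraries came from regions labelled AMY (115 libraries), Nac (112), PFC (112) and VTA (115), abbreviations commonly used for amygdala, accumbens, prefrontal cortex and the ventral tegmental area. Within each region the mice were isolated or group-housed, female or male, and had received cocaine (7.5 mg/kg) or saline under acute or chronic dosing. This makes 16 groups a region and 64 in all, of 5 to 8 libraries. The series title places the isolation in adolescence and names the medial amygdala. Strain, age at sampling, dosing days and the time from last dose to tissue are not given in the labels used here. Nothing in the labels says that libraries came from separate animals; the p-values therefore cover the scatter among libraries of a group, some of which may be technical.

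Thyroid hormone reaches the brain mostly as thyroxine, carried across the blood-brain barrier by transporters such as the product of Slco1c1. The deiodinase made from Dio2, known mainly from astrocytes and tanycytes, turns thyroxine into the active hormone triiodothyronine, and the deiodinase made from Dio3, known mainly from neurons, inactivates both. Triiodothyronine binds nuclear receptors made from Thra and Thrb, which regulate target genes with corepressors and coactivators. Hr encodes such a corepressor and is itself a classical hormone-induced gene of the rodent brain.

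Library totals ran from 11.2 to 52.3 mega-counts with a median of 21.7; levels are given in CPM, counts per mega-count of the library. Regional markers went with the labels: on the log2(CPM + 1) scale, striatal neuron markers averaged 8.62 in Nac and at most 4.74 elsewhere, dopamine neuron markers 7.89 in VTA and at most 2.04 elsewhere, and cortical glutamatergic markers 7.59 in PFC and at most 4.77 elsewhere. By markers of other tissues, opposite-sex transcripts or principal components, 29 libraries stood apart (8 in AMY, 8 in Nac, 4 in PFC, 9 in VTA), among them 3 female libraries with opposite-sex transcripts at 5.83%, 8.25% and 34.2% of the other sex's median. Sample titles carry 129 numbers, in the 500s, 1000s, 1100s and 1200s. Both acute arms hold only 1000s and 1100s, chronic cocaine only 1000s and 1200s, and chronic saline only 500s and 1200s. No label says what the number series mark, so the comparisons below give values within series wherever a schedule or a chronic treatment is involved. Within a series the numbers still run in blocks. In the 1000s all acute numbers lie below the chronic ones, and in the 1200s all cocaine numbers lie below the saline ones.

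Thra, the receptor gene that dominates in brain (chromosome 11, 98740638 to 98769006, plus strand, GRCm38), averaged 689 ± 69.0 CPM in AMY (SD, n = 115), 683 ± 56.7 in Nac (n = 112), 911 ± 71.4 in PFC (n = 112) and 414 ± 45.6 in VTA (n = 115). The 112 PFC libraries spanned 745 to 1099 CPM and the 115 VTA libraries 280 to 615 CPM, without overlap. AMY and Nac could not be ordered: they differed by a log2 value of -0.019 (SE 0.018; edgeR, adjusted p = 0.327). Of the exon bases of Thra, 263 (5.7%) are shared with Nr1d1 on the opposite strand, and since the strand setting of the counting is not given, reads there could fall to either gene. Nr1d1 averaged 53.5 to 102 CPM across regions.

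Thrb, the second receptor gene, known for its part in hormone feedback (chromosome 14, 17660261 to 18038090, plus strand), was steeper across regions. It averaged 106 ± 12.9 CPM in PFC, 61.9 ± 9.45 in Nac, 50.4 ± 11.4 in AMY and 17.1 ± 2.73 in VTA. PFC lay above VTA by 2.66 on the log2 scale (SE 0.034, adjusted p = 1.74e-240), against 1.15 for Thra (SE 0.018). All 6 region pairs differed for Thrb, in the order PFC, Nac, AMY, VTA.

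The deiodinase genes lie on chromosome 12. Dio2 (90724552 to 90738438, minus strand) averaged 85.8 ± 33.4 CPM in PFC, 49.5 ± 23.9 in Nac, 30.7 ± 11.97 in VTA and 28.3 ± 10.8 in AMY. PFC exceeded Nac, and Nac exceeded both other regions, but AMY and VTA did not differ past the threshold (-0.11 log2, SE 0.063, adjusted p = 0.0921). That outcome changed when libraries were matched by the number in their titles, as given at the end. Its spread was wide in every region, with a coefficient of variation over libraries of 38.1% to 48.3%, where that of Thra was 7.84% in PFC and 8.30% in Nac.

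Dio3 (110279068 to 110281097, plus strand), a gene of an imprinted cluster, averaged 7.01 ± 3.45 CPM in Nac, 6.54 ± 2.30 in PFC and 3.75 ± 5.09 in AMY, where the median was 2.44 and single libraries reached 35.4. Nac and PFC did not differ past the threshold (0.13 log2, SE 0.11, adjusted p = 0.230). In VTA it was at the edge of detection, with a median count of 1 per library and 34 of 115 libraries at 0. It did not pass the filter on low counts there, so comparisons within VTA cover 5 genes and those over all regions 23 tests. A single VTA library, from a group-housed female with acute cocaine, reached 6.77 CPM. The same library held the highest VTA level of both receptor genes, 615 CPM of Thra and 36.1 CPM of Thrb, and was not among the 29 that stand apart.

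Slco1c1, the transporter gene (chromosome 6, 141524368 to 141570177, plus strand), averaged 65.3 ± 9.17 CPM in Nac, 56.3 ± 9.02 in PFC, 46.0 ± 11.4 in VTA and 43.7 ± 11.2 in AMY. It was the only one of the 6 genes with a higher mean in Nac than in PFC by a difference past the threshold (0.23 log2, SE 0.034, adjusted p = 3.22e-10). AMY was below VTA by 0.08 log2 (SE 0.034, adjusted p = 0.0205), a call that was lost with RLE factors (-0.065, adjusted p = 0.0665) and without the filter on low counts (-0.074, adjusted p = 0.0609).

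Hr (chromosome 14, 70552212 to 70573548, plus strand) ran the other way. It averaged 43.6 ± 6.55 CPM in VTA, 17.2 ± 6.09 in Nac, 17.1 ± 4.57 in PFC and 13.8 ± 4.12 in AMY, and VTA exceeded AMY by a log2 difference of 1.69 in size (AMY minus VTA -1.69, SE 0.047). Hr was thus highest in the region where both receptor genes were lowest. Nac and PFC did not differ past the threshold (-0.011, SE 0.047, adjusted p = 0.826).

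Over the 6 genes, those past an adjusted p of 0.05 numbered 5 between AMY and Nac (84.4% of all genes were), 6 between AMY and PFC (81.5%), 5 between AMY and VTA (87.3%), 4 between Nac and PFC (86.0%), 6 between Nac and VTA (90.4%) and 6 between PFC and VTA (89.3%). Most genes differed between regions, and the counts of the 6 are near that background. Per kilobase of exon, which allows levels to be compared between genes, mean levels in PFC were 197 CPM per kb for Thra, 14.8 for Dio2, 14.4 for Thrb, 10.9 for Slco1c1, 3.22 for Dio3 and 2.48 for Hr. In bulk tissue, fewer cells of a type and less RNA per cell cannot be told apart, here and in every comparison below.

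**Figure D1:**
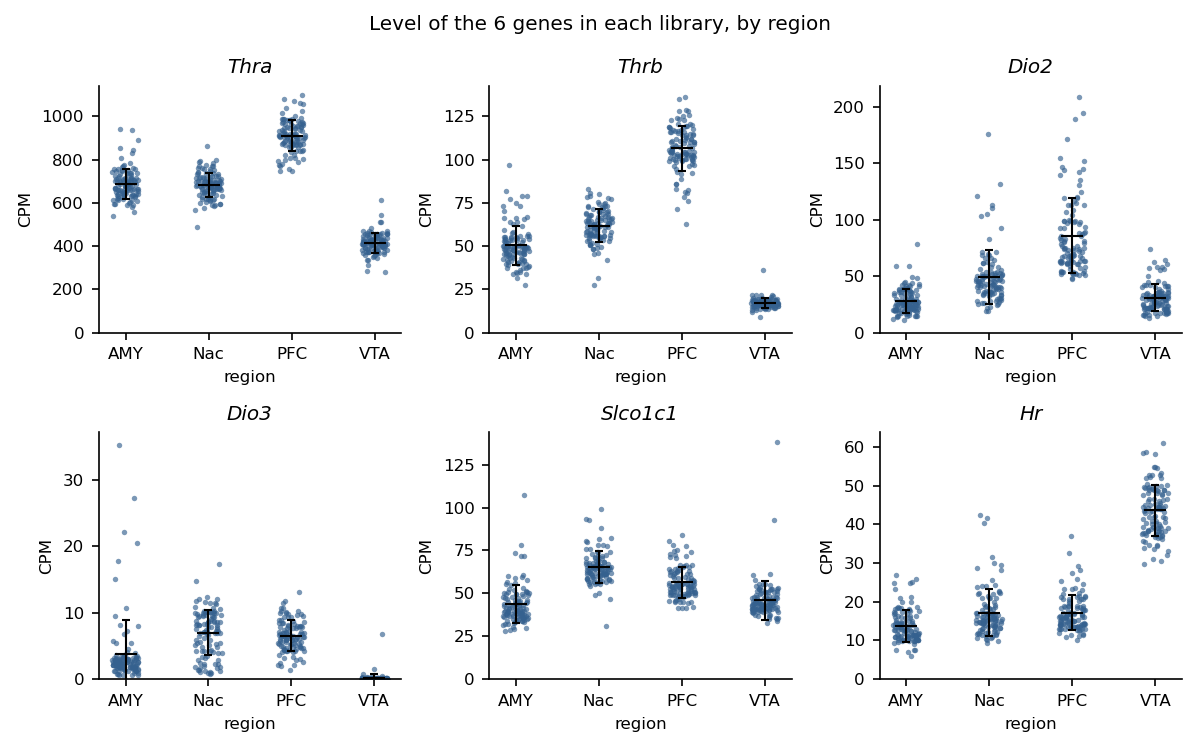
CPM (counts per mega-count, TMM-scaled) of each gene on the y axis in every library, by region on the x axis; each point is a library, and the bars are mean ± SD over the 112 to 115 libraries of a region. Both receptor genes and Dio2 are highest in PFC, Hr is highest in VTA, and Dio3 is near 0 in VTA except in 1 library at 6.77 CPM.

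In the sex comparison, which averages 8 matched female and male group pairs, 2 of 23 tests passed, both in PFC and both lower in females: Dio2 and Slco1c1. Of all genes tested, 1.12% passed in PFC, against 2.19% in AMY, 0.272% in Nac and 0.332% in VTA. At an unadjusted p under 0.05 there were 9 of the 23, and 7819 of the 68804 tests of all genes.

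Dio2 in PFC had a lowest value of 47.8, a median of 71.7 and a highest value of 155 CPM in 56 female libraries, against 52.9, 79.9 and 209 CPM in 56 male libraries. The ranges overlapped almost fully, and 21 of 56 female libraries were above the male median. Means were 78.5 ± 26.6 CPM in females and 93.1 ± 37.8 CPM in males, the log2 difference was -0.21 (SE 0.056, adjusted p = 0.0302), and the female mean was lower in 6 of 8 pairs. Without the filter on low counts the adjusted p was 0.0679. The female mean was the higher one in both pairs of group-housed saline mice, at 97.0 against 92.9 CPM (acute) and 63.4 against 61.8 CPM (chronic).

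Slco1c1 in PFC had 41.3, 53.0 and 72.8 CPM (lowest, median, highest) in females and 41.3, 57.6 and 84.2 CPM in males. Only 11 of 56 female libraries were above the male median, while the lowest levels of the sexes were nearly the same. Means were 53.2 ± 6.66 CPM in females and 59.5 ± 9.98 CPM in males, a log2 difference of -0.16 (SE 0.038, adjusted p = 0.0155), and 6 of 8 pairs had the lower mean in the female group. The other pairs were again those of group-housed saline mice, with females at 59.0 and males at 58.9 CPM (acute) and 53.0 and 52.7 CPM (chronic).

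Within number series, Dio2 in PFC differed by -0.095 in the 500s, -0.24 in the 1000s, -0.28 in the 1100s and -0.15 in the 1200s, and Slco1c1 by -0.035, -0.19, -0.14 and -0.15 in the same order. Each of these 8 values was negative and none passed the threshold alone, while with the series as a covariate both genes passed (adjusted p = 0.0122 and 0.00382). Of 10 endothelial markers, 3 were lower in PFC of females (median log2 -0.15, against -0.00058 over all genes). Their summed level ran from 146 to 382 CPM with a median of 301 in females, and from 245 to 480 CPM with a median of 331 in males. Of 10 astrocyte markers, 1 was lower, with a median sum of 3927 CPM in females and 4092 CPM in males. The part of these cell types in the Dio2 and Slco1c1 differences was not tested.

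Outside PFC, mean levels of Slco1c1 were 41.0 ± 8.30 CPM in female AMY (n = 59) and 46.5 ± 13.0 CPM in male AMY (n = 56), and 62.1 ± 7.11 CPM in female Nac (n = 52) and 68.0 ± 9.90 CPM in male Nac (n = 60). Their log2 differences of -0.19 (adjusted p = 0.0690) and -0.13 (adjusted p = 0.121) missed the threshold. In VTA the difference was -0.013 (adjusted p = 0.983). For Dio2 the log2 sex differences were -0.20 in AMY and -0.28 in Nac, against -0.21 in PFC. They were the lowest of the 6 genes in these regions, and outside PFC neither passed the threshold. Whether the sex difference itself changes from region to region was not tested.

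**Figure D2:**
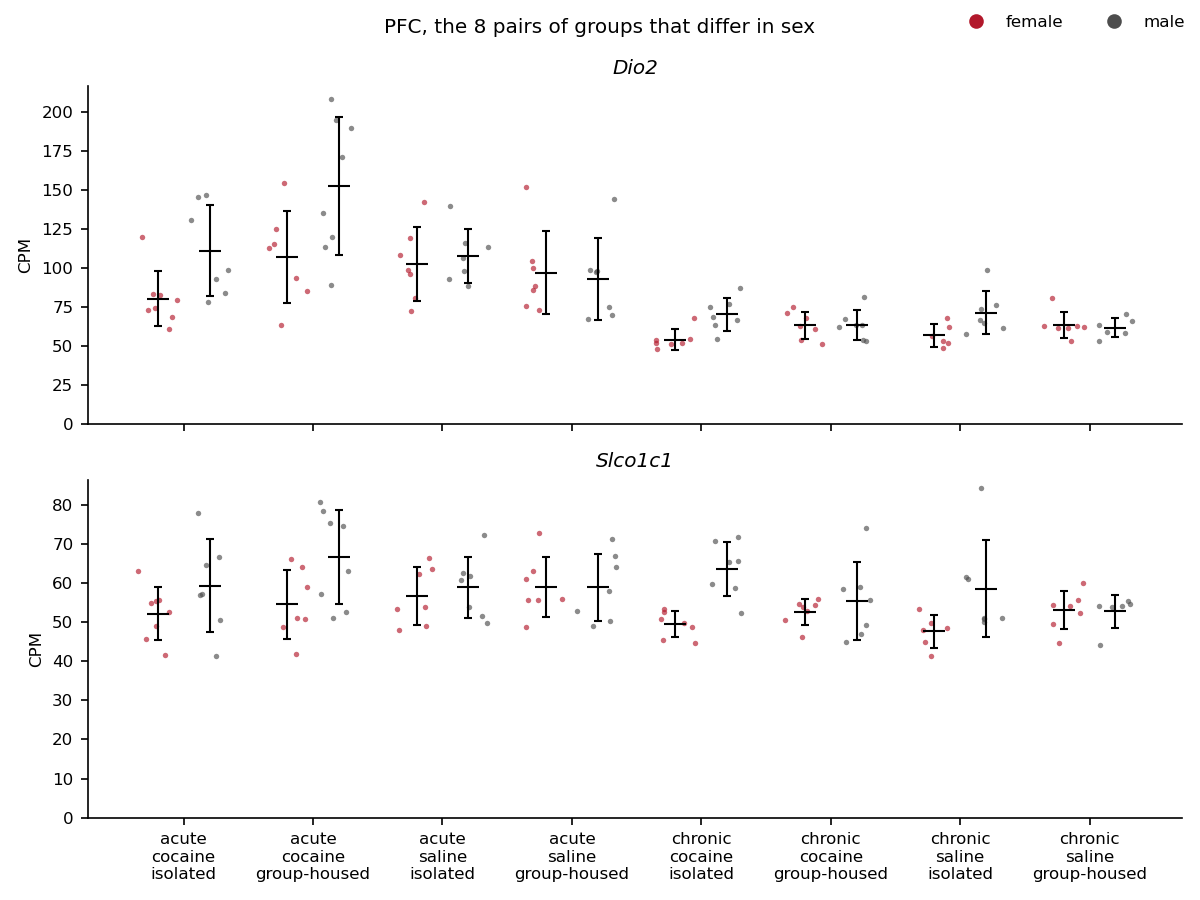
CPM of Dio2 (top) and Slco1c1 (bottom) in PFC for 8 matched group pairs, females left and males right; points are libraries, bars mean ± SD of the 6 to 8 libraries of a group. Female means are lower in 6 of 8 pairs for either gene, and the points of the sexes overlap in every panel. For Dio2 each chronic group's mean lies below every acute group's mean.

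The promoters of these genes are shown because Dio2 and Slco1c1 were the pair that differed by sex and, as given further on, varied together from library to library. Sequences are RefSeq promoters of GRCm38.p6, from 250 bases before to 50 after the start, 5′ to 3′ on the strand of the gene. In Dio2 (chr12:90738989-90739288, minus strand) capitals mark TGACGTCA, a cAMP response element, an element known from the human DIO2 promoter. In Slco1c1 (chr6:141524104-141524403, plus strand) nothing is in capitals, since neither motif searched was found. Gene spans above are those of GENCODE on the same build, and the RefSeq starts of Dio2 and Slco1c1 lie outside these spans.
Dio2: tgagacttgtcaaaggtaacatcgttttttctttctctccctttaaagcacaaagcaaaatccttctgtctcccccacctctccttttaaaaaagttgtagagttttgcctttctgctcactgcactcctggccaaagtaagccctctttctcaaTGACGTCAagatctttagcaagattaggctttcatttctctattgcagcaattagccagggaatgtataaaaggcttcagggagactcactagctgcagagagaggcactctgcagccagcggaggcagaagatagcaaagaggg
Slco1c1: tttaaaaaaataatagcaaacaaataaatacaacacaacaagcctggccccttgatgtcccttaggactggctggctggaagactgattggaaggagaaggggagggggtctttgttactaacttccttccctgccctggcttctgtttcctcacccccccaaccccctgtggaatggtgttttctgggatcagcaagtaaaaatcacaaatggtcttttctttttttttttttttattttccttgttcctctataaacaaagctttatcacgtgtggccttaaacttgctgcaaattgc

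The motifs searched on both strands were TGACGTCA, present in 1.79% of 32851 promoters, and the thyroid hormone receptor half-site AGGTCA, which on the opposite strand reads as TGACCT, present in 16.3%. Neither promoter held a half-site, which says only that these letters are not in this window. The promoter of Dio2 has a GC content of 44.7% with 3 CpG and that of Slco1c1 42.0% with 1 CpG, below the medians of all promoters (52.7% and 7). That of Dio3 has 69.0% and 25 CpG. Thrb has 2 entries: the first, with 72.7% GC and 37 CpG, holds 1 half-site, and the second, with 46.0% GC and 4 CpG, holds none.

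Sex was also measured in saline mice alone, by housing. In isolated saline mice 0 of 23 tests passed with edgeR (4 at an unadjusted p under 0.05; 0.0858% of all tests passed), and in group-housed saline mice 0 of 23 (1; 0.0785%). Of all 68804 tests, 5235 and 2529 had an unadjusted p under 0.05, in the same order. Tested directly, the difference between these sex effects gave 0 of 23 (0 at an unadjusted p under 0.05; 0.0% of all tests).

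Social isolation was the central condition of the series, and none of the 6 genes differed by housing past the threshold in any region. Isolated minus group-housed, over all 8 pairs, 0 of 23 tests passed with edgeR and 0 had an unadjusted p under 0.05, where 0.0% of all tests passed. The log2 differences ran from -0.078 (Dio2 in PFC) to 0.29 (Dio3 in AMY). Dio2 in PFC measured 82.2 ± 26.8 CPM in isolated mice and 89.4 ± 38.8 CPM in group-housed mice (n = 56 each). Dio3 in AMY had a median of 2.52 CPM in isolated mice, whose highest value was 35.4, and 2.40 CPM in group-housed mice, whose highest value was 20.5.

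The intervals give what these data allow. For Thra in AMY the 95% interval of the housing difference was -0.051 to 0.055, and for Thrb in AMY -0.11 to 0.12. For Dio3 in AMY it was -0.081 to 0.67, the widest interval of the 23. Among saline mice alone, isolated females gave 0 of 23 (0 at an unadjusted p under 0.05; 0.0% of all tests) and isolated males 0 of 23 (0; 0.0%).

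Acute cocaine gave 0 of 23 with edgeR, 2 of them at an unadjusted p under 0.05, and 0.0276% of all tests passed. An unadjusted p under 0.05 was found in 4344 of the 68804 tests of all genes. Differences from acute saline ran from -0.21 (Dio2 in Nac) to 0.36 (Dio3 in Nac). The smallest p-values were those of Thrb in PFC (-0.12, SE 0.043, adjusted p = 0.355) and Slco1c1 in VTA (0.17, SE 0.075, adjusted p = 0.683).

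An F test of unequal acute effects among the 4 sex and housing combinations passed for 0 of 23 (0.0901% of all tests passed). At an unadjusted p under 0.05 there were 4576 of all 68804 tests and 3 of the 23. Dio2 in PFC had the smallest p of these (4.36e-05, adjusted p = 0.377). It averaged 153 ± 44.1 CPM with acute cocaine and 92.9 ± 26.6 CPM with saline in group-housed males, and 111 ± 29.3 CPM with cocaine and 108 ± 17.4 CPM with saline in isolated males. In isolated females it averaged 80.2 ± 17.6 CPM with cocaine and 103 ± 23.7 CPM with saline, and in group-housed females 107 ± 29.6 CPM with cocaine and 97.0 ± 26.8 CPM with saline. The group-housed males with acute cocaine had the highest mean of the 16 PFC groups, 2.82 times the lowest.

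Chronic cocaine gave 1 of 23, Dio3 in PFC (3 at an unadjusted p under 0.05, where 9446 of 68804 tests of all genes were). Of all genes, 7.12% passed in PFC, against 0.0518% in AMY, 0.151% in Nac and 0.0817% in VTA. Dio3 in PFC had 2.09, 6.64 and 13.1 CPM (lowest, median, highest) in 28 libraries with chronic cocaine, against 1.36, 4.74 and 9.91 CPM in 26 with chronic saline. The ranges overlapped, and 23 of 28 cocaine libraries were above the saline median.

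Means of Dio3 were 6.81 ± 2.40 CPM with cocaine and 4.78 ± 1.75 CPM with saline, higher in 4 of 4 pairs, and the log2 difference was 0.51 (SE 0.13, adjusted p = 0.0140). The call did not hold within a number series. In the 1200s, the only series with both arms, Dio3 measured 5.51 ± 1.58 CPM with cocaine (n = 8) and 5.25 ± 1.05 CPM with saline (n = 16), a difference of 0.072 (SE 0.14), and with the series as a covariate it was 0.043 (SE 0.20, adjusted p = 0.9998). Of 7 striatal neuron markers, 5 were higher in PFC with chronic cocaine (median log2 0.50), as were 2 of 7 choroid plexus, 2 of 4 dopamine neuron and 1 of 10 astrocyte markers. Of 7 neuron markers 3 were lower (median log2 -0.10), and 1 of 2 pituitary markers. Their part in the result was not tested.

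The chronic cocaine effect gave 0 of 23 when its difference between combinations of sex and housing was tested (0 at an unadjusted p under 0.05; 0.0363% of all tests passed). The difference between the chronic and the acute cocaine effect also gave 0 of 23, and 0.0% of all tests passed. At an unadjusted p under 0.05 there were 4870 of all 68804 tests and 2 of the 23. For Dio3 in PFC this difference of effects was 0.45 (SE 0.18, adjusted p = 0.884).

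**Figure D3:**
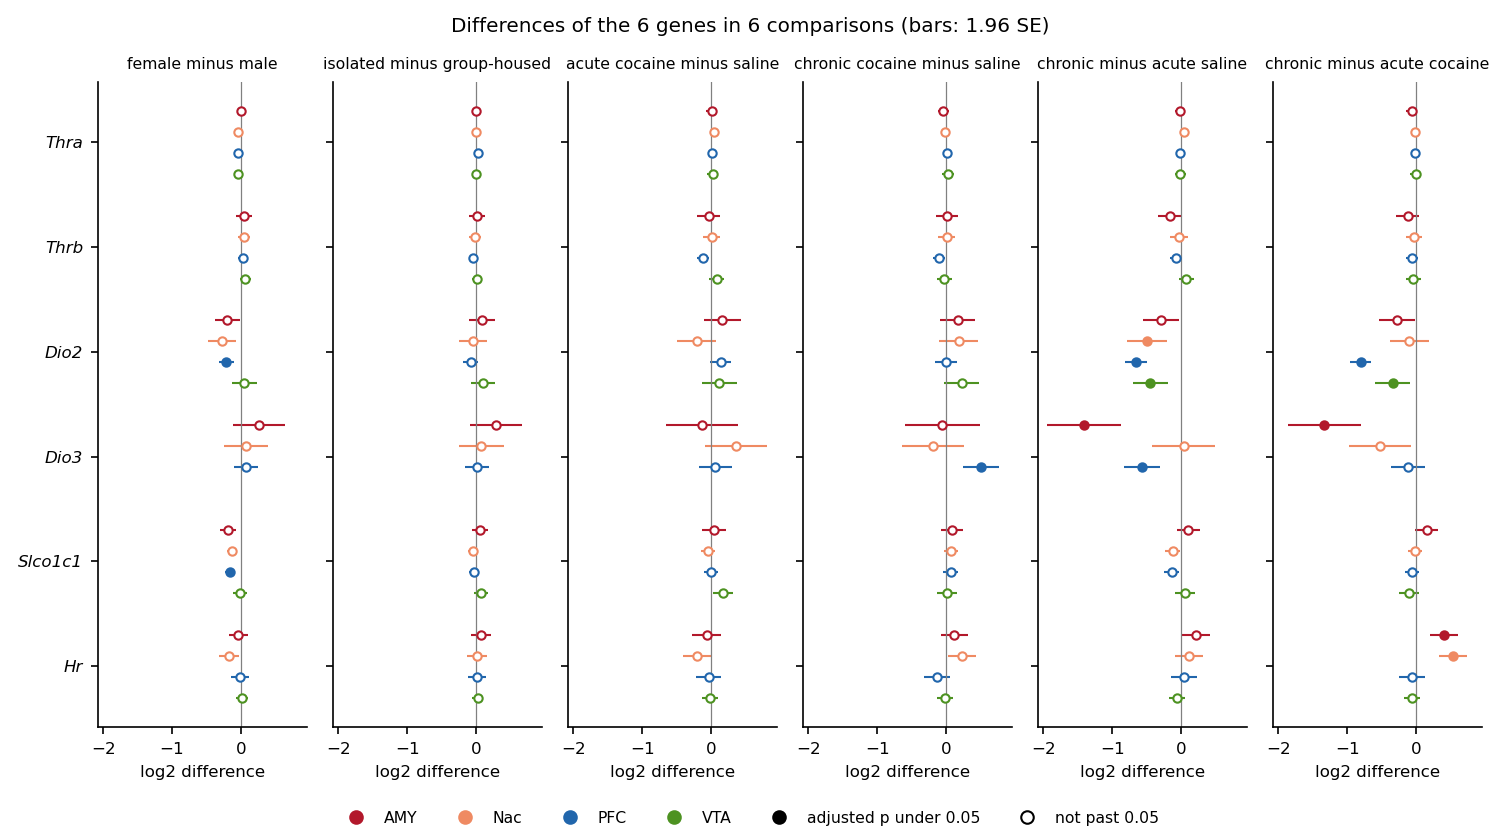
Log2 difference of each gene (rows) in 4 regions (colours) for 6 comparisons (panels), with bars of 95% intervals; filled points have an edgeR adjusted p under 0.05. Housing and acute cocaine show no filled point, and the largest differences, all within regions, are those of Dio3 in AMY and Dio2 in PFC between chronic and acute groups.

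Within regions, the 4 largest of the differences plotted were between chronic and acute groups, those of Dio3 in AMY and Dio2 in PFC under saline and under cocaine. Under saline 5 of 23 tests passed, all lower in the chronic groups: Dio2 in Nac, PFC and VTA, and Dio3 in AMY and PFC (10 at an unadjusted p under 0.05). Of all 68804 tests, 26156 had an unadjusted p under 0.05. The background is high, with 43.6% of all genes called in VTA, 23.3% in PFC, 20.9% in Nac and 20.4% in AMY. The saline arms share no number series, so schedule and series cannot be told apart there.

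Dio2 in PFC had 48.5, 62.0 and 98.5 CPM (lowest, median, highest) in 26 chronic saline libraries and 67.2, 98.3 and 152 CPM in 28 acute saline libraries. Only 1 of 26 chronic libraries was above the acute median. The means were 63.6 ± 10.4 CPM in chronic and 100 ± 23.3 CPM in acute saline, a log2 difference of -0.66 (SE 0.080, adjusted p = 1.95e-10). With the series as a covariate, which can be fitted only through the cocaine groups, it was -0.33 (adjusted p = 0.422).

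Dio2 in Nac averaged 40.9 ± 11.1 CPM in chronic and 60.3 ± 36.1 CPM in acute saline (-0.49, SE 0.15, adjusted p = 0.0106), lower in 3 of 4 pairs, and in VTA 24.6 ± 6.04 CPM in chronic and 33.5 ± 16.6 CPM in acute saline (-0.45, SE 0.13, adjusted p = 0.00302). With the covariate both turned to the other sign, 0.056 and 0.13. By series, Dio2 in Nac averaged 44.3 CPM (1000s) and 75.3 CPM (1100s) in acute saline. In chronic saline it averaged 45.5 CPM (500s) and 38.4 CPM (1200s) there. The same series in VTA had 23.8 and 40.7 CPM in acute saline, and 25.7 and 23.8 CPM in chronic saline. The higher acute means were thus those of the 1100s. Dio3 in AMY had medians of 1.99 CPM in chronic and 3.01 CPM in acute saline (-1.41, SE 0.27, adjusted p = 4.06e-05; -1.32 and adjusted p = 0.194 with the covariate). Dio3 in PFC averaged 4.78 ± 1.75 CPM in chronic and 7.06 ± 2.12 CPM in acute saline (-0.57, SE 0.13, adjusted p = 5.52e-04; -0.13 with the covariate). With the covariate none of these 5 calls remained, and the only call among the 6 genes was Hr in VTA (-0.37, SE 0.12, adjusted p = 0.0286).

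Marker lists moved with schedule under saline too. In AMY, 6 of 10 choroid plexus markers were lower in chronic saline (median log2 -1.62). So were 3 of 6 medial amygdala and hypothalamus markers and 1 of 5 ependyma and tanycyte markers. Of 10 endothelial markers 8 were higher and 1 lower, and 4 of 10 astrocyte markers were higher. In VTA, 3 of 5 ependyma and tanycyte, 4 of 10 choroid plexus and 3 of 10 astrocyte markers were lower, and 6 of 6 dopamine neuron and 7 of 7 microglia markers were higher. In Nac, 4 of 10 astrocyte markers were lower and 1 higher, and in PFC 1 was higher and 1 lower. Also in Nac, 3 of 7 striatal neuron, 3 of 7 microglia and 2 of 4 cerebellum markers were higher, and 2 of 7 neuron markers lower. The 5 cortical glutamatergic markers had a median log2 of -0.85 in Nac, and none was called. Not every list is named here for every region. Pituitary markers that could be tested were all higher in the chronic groups (2 of 2 in AMY, Nac and PFC, 3 of 3 in VTA). The part of these cells in the Dio2 and Dio3 differences was not tested.

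The same schedule difference was measured under cocaine, a comparison added after the data were seen because the 1000s hold both of its arms. Within the 1000s the acute libraries all carry lower numbers than the chronic ones, so schedule and number block cannot be told apart there either. The comparison shares no library with the one under saline. Of 23 tests, 5 passed (7 at an unadjusted p under 0.05): Dio2 in PFC and VTA and Dio3 in AMY were lower in the chronic groups, and Hr in AMY and Nac was higher. An unadjusted p under 0.05 was found in 25516 of the 68804 tests of all genes. Of all genes, 38.2% passed in VTA, 24.3% in Nac, 18.5% in PFC and 18.4% in AMY, so that the count itself is near the background.

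Dio2 in PFC had 47.8, 63.0 and 87.0 CPM (lowest, median, highest) in 28 libraries with chronic cocaine and 60.7, 106 and 209 CPM in 30 with acute cocaine. None of the chronic libraries (0 of 28) reached the acute median, and all 4 pairs of groups had the lower mean in the chronic group. The means were 62.8 ± 10.3 CPM in chronic and 113 ± 40.6 CPM in acute cocaine, and the log2 difference was -0.81 (SE 0.078, adjusted p = 1.46e-14). It held within the 1000s, at 64.7 ± 11.2 CPM in chronic (n = 20) and 101 ± 32.6 CPM in acute cocaine (n = 15), a difference of -0.58 (SE 0.068, adjusted p = 4.80e-08), where 14.9% of all genes passed.

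Cell markers moved with this comparison in PFC. In the chronic groups, 3 of 7 choroid plexus, 3 of 7 microglia, 3 of 7 striatal neuron and 2 of 2 pituitary markers were higher. So were 2 of 4 dopamine neuron, 2 of 4 cerebellum and 1 of 7 oligodendrocyte markers. Lower were 2 of 7 neuron and 1 of 5 cortical glutamatergic markers. Of 10 astrocyte markers 1 was higher and 1 lower, with median sums of 4116 CPM in chronic and 3973 CPM in acute cocaine, and of 10 endothelial markers 2 were higher and 1 lower. The part of these cells in the Dio2 difference was not tested. In the same libraries Slco1c1 had 55.2 ± 8.12 CPM in chronic and 58.2 ± 11.1 CPM in acute cocaine, a difference that did not pass (-0.067, SE 0.053, adjusted p = 0.392).

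Dio3 in AMY had 0.567, 1.94 and 3.52 CPM in 30 chronic cocaine libraries and 1.33, 2.91 and 27.4 CPM in 28 acute ones. The chronic values stayed in a narrow low range, while a tail of high libraries was seen in the acute groups. The log2 difference was -1.34 (SE 0.27, adjusted p = 1.57e-04) and -1.46 within the 1000s (SE 0.39, adjusted p = 0.0118).

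Hr in AMY had 10.2, 14.2 and 26.9 CPM in chronic cocaine and 6.90, 11.4 and 24.8 CPM in acute cocaine, a difference of 0.40 (SE 0.10, adjusted p = 0.00354), and 0.56 within the 1000s (adjusted p = 0.0105). In Nac it had 11.96, 17.1 and 42.3 CPM in 29 chronic libraries and 9.39, 13.4 and 25.7 CPM in 28 acute ones, a difference of 0.54 (SE 0.10, adjusted p = 9.06e-05), and 0.68 within the 1000s (adjusted p = 0.00174). In Nac 27 of 29 chronic libraries were above the acute median. All 4 pairs there had the higher mean in the chronic group, but isolated males differed most, at 27.7 against 11.85 CPM. The means were 17.15 against 13.21 CPM in group-housed females and 17.67 against 14.82 CPM in isolated females. Group-housed males had 20.06 against 16.95 CPM. Within the 1000s, 13.2% of all genes passed in AMY and 4.65% in Nac.

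Marker lists moved with these differences in AMY. There, 8 of 10 endothelial, 6 of 10 astrocyte and 4 of 7 microglia markers were higher in chronic cocaine, 4 of 6 medial amygdala and hypothalamus markers were lower and 1 higher, and 2 of 5 ependyma and tanycyte markers were lower. The summed ependyma and tanycyte level ran from 24.9 to 51.3 CPM (median 38.5) in chronic and from 22.5 to 89.0 CPM (median 42.2) in acute cocaine. In Nac 4 of 7 striatal neuron markers were higher, and 2 of 10 astrocyte markers were higher and 3 lower. The part of these cells in the Dio3 and Hr differences was not tested. Dio2 in VTA (28.5 ± 8.76 CPM in chronic and 36.4 ± 10.95 CPM in acute cocaine, -0.34, adjusted p = 0.0247) lost its call without the 9 VTA libraries that stand apart (-0.30, adjusted p = 0.0642) and within the 1000s (-0.23), where 26.7% of all genes passed. In VTA, 4 of 5 ependyma and tanycyte markers (median log2 -0.91), 9 of 10 choroid plexus and 3 of 10 astrocyte markers were lower in chronic cocaine, while 6 of 6 dopamine neuron, 7 of 7 microglia and 5 of 7 neuron markers were higher. Their part in the Dio2 difference was not tested.

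**Figure D4:**
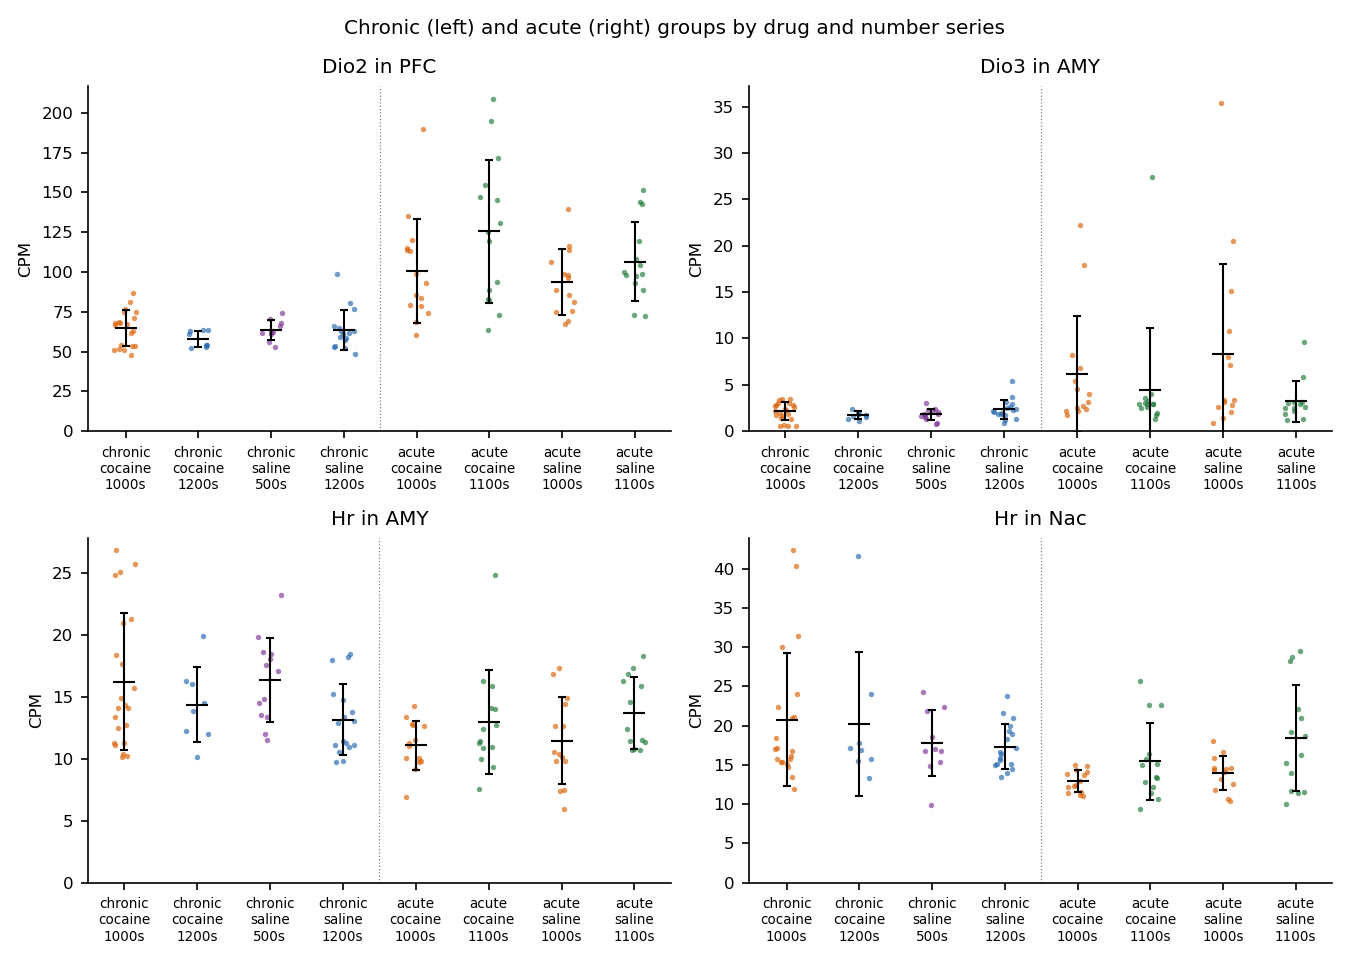
CPM of Dio2 in PFC, Dio3 in AMY and Hr in AMY and Nac, with chronic groups left and acute groups right of the dotted line, split by drug and number series; points are libraries and bars mean ± SD of 8 to 22 libraries. Within the 1000s (orange), Dio2 averages 64.7 CPM in chronic and 101 CPM in acute cocaine, and in AMY no chronic library exceeds 5.42 CPM of Dio3, where acute libraries reach 35.4 CPM.

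Beyond the groups, the 6 genes varied together from library to library in recurring pairs. Deviations of log2 CPM from the group mean were correlated within each region over 112 to 115 libraries, 55 pairs in all, with permutation tests within groups. Of these, 29 passed by Pearson's r after adjustment, 15 positive and 14 negative. The smallest p that 100000 permutations can give is 1e-05, which adjusts to 3.06e-05. Points share library depth and dissection, and r within number series is given as a range over the 4 series.

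Dio2 and Slco1c1, activating enzyme and transporter, varied together. Pearson's r was 0.66 in AMY (rho 0.72; 0.52 to 0.89 within series), 0.64 in Nac (rho 0.66; -0.091 to 0.81), 0.72 in PFC (rho 0.70; 0.59 to 0.81) and 0.42 in VTA (rho 0.40; 0.035 to 0.56). The adjusted permutation p was 3.06e-05 in the first 3 regions and 1.05e-04 in VTA. The negative value in Nac is that of the 500s. Without the 2 libraries farthest from the median r was 0.70 in PFC, 0.63 in AMY, 0.59 in Nac and 0.39 in VTA.

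Dio3 and Hr, inactivating enzyme and hormone-induced gene, varied in opposite directions. Their r was -0.72 in AMY (rho -0.66; -0.81 to -0.36 within series), -0.79 in Nac (rho -0.73; -0.82 to -0.65) and -0.57 in PFC (rho -0.50; -0.56 to -0.49), each with an adjusted permutation p of 3.06e-05. Without the 2 farthest libraries it was -0.69, -0.78 and -0.53 in the same order. Of the 12755 genes ranked by mean r with Dio3 over these 3 regions, Hr came last.

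Dio2 and Dio3, the opposing deiodinases, were strongly negative in Nac (r -0.85, rho -0.84, adjusted permutation p 3.06e-05; -0.89 to -0.69 within series). In AMY (r 0.17, adjusted permutation p 0.156) and PFC (r -0.053, 0.697) no relation passed the threshold. Thra and Dio3 were positive in AMY (r 0.84; 0.41 to 0.90 within series), Nac (0.46; 0.12 to 0.54) and PFC (0.55; 0.45 to 0.72). Thra and Hr were negative over all libraries in AMY (r -0.70; -0.78 to -0.22 within series), Nac (-0.39; -0.50 to -0.25), PFC (-0.50; -0.61 to -0.37) and VTA (-0.25; -0.45 to 0.13), where the positive value is that of the 1200s. In VTA the strongest pair was Thra with Dio2 (r -0.77, rho -0.80; -0.94 to -0.73 within series). The receptor genes went together in AMY (r 0.71; 0.30 to 0.76 within series), and no relation passed in Nac (-0.051) or PFC (-0.17). In VTA their relation was negative by rank (rho -0.35, adjusted permutation p 3.90e-04) and did not pass by r (-0.21, adjusted permutation p 0.143; -0.38 without the 2 farthest libraries; -0.71 to 0.15 within series).

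**Figure D5:**
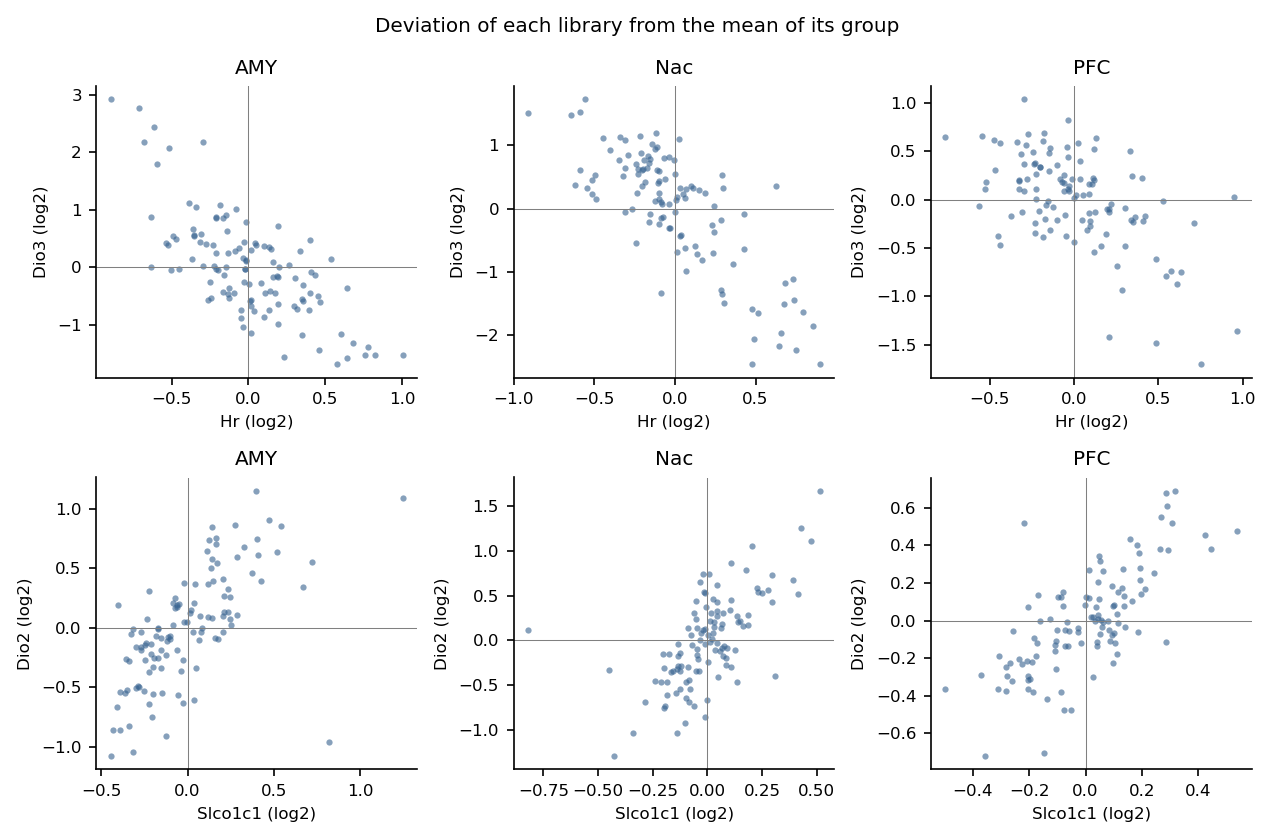
Deviation of each library from its group mean (log2 CPM) for Dio3 against Hr (top) and Dio2 against Slco1c1 (bottom) in AMY, Nac and PFC; each point is a library. Dio3 falls as Hr rises (r -0.72, -0.79 and -0.57), and Dio2 rises with Slco1c1 (r 0.66, 0.64 and 0.72).

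Cell markers varied with the same libraries. Correlations with marker lists were added after the data were seen, 275 in all. In Nac, Dio3 followed the medial amygdala and hypothalamus list (r 0.90; 0.70 to 0.91 within series) and ran against the cortical glutamatergic list (-0.81; -0.91 to -0.73), while Dio2 did the reverse (-0.83 and 0.70) and Hr went with the cortical list (0.76). In AMY, Dio3 followed the ependyma and tanycyte list (0.79; 0.23 to 0.85) and Hr the oligodendrocyte list (0.74; 0.68 to 0.81). Slco1c1 followed the endothelial list in all regions (AMY 0.63, PFC 0.61, Nac 0.41, VTA 0.41). Each had an adjusted permutation p of at most 0.00154. Whether these cells account for the relations between the genes was not tested.

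The genes most like each member were ranked by mean r over the regions, among 12755 genes, as a description of these libraries. For Thra they were Ctxn1 (0.74), Mapk3 (0.74) and Ly6h (0.69), and for Thrb they included Arhgap32 (0.68) and Rapgef2 (0.68). For Dio2 they were Mfap3l (0.77), D17Wsu92e (0.68) and Sema7a (0.67), with Slco1c1 at rank 17. For Slco1c1 they were Ocln (0.62), Fermt2 (0.61) and Ezr (0.61), with Dio2 at rank 4. For Dio3, over 3 regions, they were Aloxe3 (0.73), Hpcal1 (0.71) and Krt77 (0.69), with Thra at rank 13, and for Hr Rph3a (0.68), Lynx1 (0.67) and Sema7a (0.67).

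Libraries that carry the same title number in different regions were compared as well. Of 33 relations, 4 passed by Pearson's r: Dio2 between AMY and PFC (r 0.38, rho 0.34, adjusted permutation p 0.00808, n = 102; 0.21 to 0.41 within series), Nac and PFC (0.37, 0.28, 0.00808, n = 99; 0.17 to 0.42) and AMY and Nac (0.31, 0.32, 0.0186, n = 101; -0.063 to 0.51), and Slco1c1 between Nac and PFC (0.31, 0.33, 0.0186, n = 99; -0.34 to 0.48). The negative values are those of the 1100s for Dio2 and of the 500s for Slco1c1. Without the 2 farthest numbers r was 0.30, 0.30, 0.28 and 0.33. The median r of all genes was 0.052 between AMY and PFC, 0.12 between Nac and PFC and 0.0057 between AMY and Nac. Of all genes, 1.65%, 2.76%, 1.54% and 6.30% had a higher r than these 4 values. By rank, Slco1c1 between AMY and Nac (rho 0.29, adjusted permutation p 0.0354) and Thrb between Nac and VTA (rho -0.27, adjusted permutation p 0.0423) passed as well, while their r of 0.25 and -0.23 did not (0.0523 and 0.143). Thra, Dio3 and Hr had no relation past the threshold by either measure.

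Other genes of the pathway came from 4 lists of 29 genes: 7 transporters and binding proteins, 8 receptor partners and coregulators, 13 genes known to respond to the hormone in rodents, and Dio1, which did not pass the filter on low counts in any region. With chronic cocaine, 4 of 28 passed in PFC, where 7.12% of all genes did. Rxra, a partner receptor (0.14), and the hormone-responsive Rasd2 (0.34) were higher, and the hormone-responsive Sema7a (-0.24) and Camk4 (-0.19) were lower. None of these 28 passed with the series as a covariate. With acute cocaine and with housing 0 of 28 passed in every region.

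Over the pairs that differ in sex, Ttr, the thyroxine carrier that choroid plexus makes in abundance, was lower in AMY of females (-1.81, SE 0.39, adjusted p = 0.00374), and Rasd2 was higher (0.15, adjusted p = 0.0405). Of 10 choroid plexus markers, 6 were lower in AMY of females (median log2 -1.17), with a median sum of 49.0 CPM in females and 71.7 CPM in males. Of the 8 AMY libraries that stand apart, 6 do so by choroid plexus markers, 1 of females and 5 of males. The part of choroid plexus in the Ttr difference was not tested.

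Between chronic and acute cocaine, VTA had 3 of 28 higher and 8 lower, PFC 4 higher and 5 lower, Nac 5 higher and 1 lower, and AMY 3 higher and 4 lower. Of all genes, 38.2%, 18.5%, 24.3% and 18.4% passed in the same order of regions, so that the counts in VTA (11 of 28), Nac (6) and AMY (7) are near the background. Dbp, a circadian transcription factor gene on the hormone-responsive list, was higher in the chronic groups in all 4 regions (0.31 in AMY, 0.38 in Nac, 0.37 in PFC, 0.33 in VTA), and within the 1000s as well (0.25, 0.28, 0.30 and 0.25, each with an adjusted p under 0.05). Klf9, a transcription factor gene that the hormone induces, was lower in AMY (-0.15), PFC (-0.31) and VTA (-0.23), and within the 1000s in PFC (-0.34) and VTA (-0.27). In AMY, PFC and VTA these genes of the same list thus differed in opposite directions in the same libraries. Chronic and acute saline groups, which had no cocaine, differed in the same directions. For Dbp, AMY and Nac gave 0.41 and 0.49, while PFC and VTA gave 0.27 and 0.45. Klf9 was lower under saline too, at -0.27 (AMY), -0.26 (PFC) and -0.18 (VTA). Each of these saline values passed the threshold, but the saline arms share no number series. Whether cocaine has a part in the Dbp and Klf9 differences was not tested.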

How the data were processed

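Gene-level read counts were deposited by the authors as whole numbers for 43346 genes. The submitters' processing notes name the builds GRCm38 and mm10 and, as tools, featureCounts, STAR and limma, without versions. The strand setting and any filters are not stated in the labels. Per the labels' protocols, DNase-treated RNA was made into stranded poly-A libraries and read from a single end. All columns were mapped to samples by title. Of the genes, 42462 had a symbol, and genes without one held 0.11% of counts.

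Counts were analysed as deposited in edgeR 4.0.16 (R 4.3.3) by quasi-likelihood tests, two-sided, with TMM factors, filterByExpr and 1 mean per group, separately by region (17391 genes in AMY, 17266 in Nac, 17003 in PFC, 17144 in VTA) and once over all regions (18627 genes). Benjamini-Hochberg adjustment ran over all genes tested in a comparison, with a threshold of 0.05. Levels are CPM with TMM factors. Relations used log2 CPM deviations from group means and 100000 permutations within groups. Alternatives were DESeq2 1.42.0, limma 3.58.1 (voom), RLE factors, no filter, leaving out libraries that stand apart (robust z over 8 on a marker list or over 5 on a principal component, or opposite-sex transcripts of 5% or more), and the title number series as a covariate or taken singly. The fits were tested on simulated data. Of 1399 within-group library pairs none agreed within counting noise. The precision of each level is limited by the spread of 5 to 8 libraries in a group; intervals are 95%. Figures were drawn with matplotlib 3.10.9. Other pathway genes were named from fixed lists by lowest p, up to 4 in a comparison. Members, lists and comparisons were chosen with earlier results of these data known. The comparison of schedules under cocaine, the covariate for schedule and the relations with marker lists were added after the data were seen. A gene among those most like Thrb is not reported here.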

Additional observations from a re-analysis of the deposited data

Results flagged for a closer look

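Within each group the highest or the lowest library of each gene was compared with the rest of its group by Dixon's criterion, over 384 sets of 5 to 8 libraries. It marked 57 values (14.8%) in 45 libraries. The criterion marks about 1 in 20 sets of normally distributed values, but CPM were used without a log scale. Dio3 in VTA had a median count of 1, and several of its marks are at the edge of detection. The share marked was therefore not tested against chance. Of the 57, 12 were in libraries that stand apart as described above, marked "apart" here. Each value is the CPM of a single library, followed by the range of the others of its group.

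For Thra, 8 values were marked. Thra in AMY had a single library at 937.0 CPM in isolated females with acute saline (others 635.8 to 760.2) and another at 536.8 CPM in isolated females with chronic saline (others 680.2 to 785.3). Thra in AMY also had a single library at 593.7 CPM in group-housed males with chronic cocaine (others 661.3 to 710.7). Thra in VTA had a single library at 614.6 CPM in group-housed females with acute cocaine (others 344.5 to 453.7) and another at 284.9 CPM in isolated females with acute cocaine (apart, others 391.3 to 462.5). Thra in VTA also had a single library at 513.0 CPM in isolated females with chronic cocaine (others 386.1 to 424.8) and another at 353.8 CPM in isolated males with acute saline (others 416.0 to 456.1). Thra in VTA also had a single library at 513.1 CPM in isolated males with chronic saline (others 383.7 to 428.7).

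For Thrb, 10 values were marked. Thrb in AMY had a single library at 35.17 CPM in group-housed females with chronic cocaine (others 49.59 to 55.56) and another at 55.63 CPM in group-housed females with chronic saline (others 46.48 to 49.8). Thrb in Nac had a single library at 27.7 CPM in group-housed males with chronic saline (others 56.23 to 66.23). Thrb in PFC had a single library at 112.6 CPM in group-housed females with acute cocaine (others 101.4 to 105.0) and another at 71.22 CPM in isolated females with acute cocaine (others 101.2 to 124.2). Thrb in VTA had a single library at 36.08 CPM in group-housed females with acute cocaine (others 15.01 to 18.78) and another at 13.06 CPM in isolated females with chronic cocaine (others 16.69 to 18.75). Thrb in VTA also had a single library at 12.91 CPM in group-housed males with acute cocaine (others 15.93 to 17.58) and another at 20.63 CPM in isolated males with chronic cocaine (others 16.61 to 18.03). Thrb in VTA also had a single library at 8.728 CPM in isolated males with chronic saline (others 14.91 to 18.45).

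For Dio2, 10 values were marked. Dio2 in AMY had a single library at 59.09 CPM in group-housed females with acute saline (others 14.68 to 27.49) and another at 78.4 CPM in group-housed males with acute cocaine (apart, others 20.12 to 41.66). Dio2 in AMY also had a single library at 59.16 CPM in isolated males with chronic cocaine (others 20.36 to 35.91). Dio2 in PFC had a single library at 151.8 CPM in group-housed females with acute saline (others 73.29 to 104.7) and another at 80.63 CPM in group-housed females with chronic saline (others 53.2 to 63.09). Dio2 in PFC also had a single library at 119.7 CPM in isolated females with acute cocaine (others 60.72 to 83.21) and another at 68.08 CPM in isolated females with chronic cocaine (others 47.8 to 54.25). Dio2 in PFC also had a single library at 144.1 CPM in group-housed males with acute saline (others 67.21 to 98.97). Dio2 in VTA had a single library at 57.89 CPM in group-housed females with chronic cocaine (others 16.08 to 31.36) and another at 32.68 CPM in group-housed males with chronic saline (others 17.02 to 22.51).

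For Dio3, 13 values were marked. Dio3 in AMY had a single library at 15.09 CPM in group-housed females with acute saline (others 2.635 to 5.797) and another at 35.35 CPM in isolated females with acute saline (others 2.113 to 9.579). Dio3 in AMY also had a single library at 20.49 CPM in group-housed males with acute saline (apart, others 1.244 to 8.055) and another at 10.78 CPM in isolated males with acute saline (apart, others 0.8417 to 3.318). Dio3 in Nac had a single library at 17.32 CPM in isolated males with acute cocaine (apart, others 8.221 to 11.56). Dio3 in PFC had a single library at 13.08 CPM in group-housed females with chronic cocaine (others 4.16 to 6.864) and another at 9.913 CPM in isolated females with chronic saline (others 4.182 to 5.935). Dio3 in VTA had a single library at 6.773 CPM in group-housed females with acute cocaine (others 0.0 to 0.1117) and another at 0.3388 CPM in group-housed females with chronic cocaine (others 0.0 to 0.1165). Dio3 in VTA also had a single library at 0.2272 CPM in group-housed females with acute saline (others 0.0 to 0.08569) and another at 1.55 CPM in isolated females with acute cocaine (apart, others 0.0 to 0.3873). Dio3 in VTA also had a single library at 0.0 CPM in group-housed males with chronic cocaine (others 0.0961 to 0.1826) and another at 0.7064 CPM in group-housed males with acute saline (others 0.0 to 0.0928).

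For Slco1c1, 8 values were marked. Slco1c1 in AMY had a single library at 78.34 CPM in group-housed females with chronic cocaine (apart, others 34.41 to 53.08) and another at 107.1 CPM in group-housed males with acute cocaine (apart, others 34.01 to 42.39). Slco1c1 in Nac had a single library at 81.83 CPM in isolated females with acute cocaine (others 54.01 to 65.91) and another at 31.2 CPM in isolated females with chronic saline (apart, others 57.25 to 72.28). Slco1c1 in PFC had a single library at 44.11 CPM in group-housed males with chronic saline (others 53.98 to 55.37) and another at 84.23 CPM in isolated males with chronic saline (others 49.97 to 61.56). Slco1c1 in VTA had a single library at 138.3 CPM in isolated females with acute cocaine (apart, others 38.99 to 52.29) and another at 92.51 CPM in isolated males with acute cocaine (apart, others 38.68 to 47.8).

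For Hr, 8 values were marked. Hr in AMY had a single library at 24.84 CPM in isolated females with acute cocaine (others 7.576 to 14.11) and another at 17.1 CPM in group-housed males with chronic saline (others 11.54 to 13.79). Hr in AMY also had a single library at 25.78 CPM in isolated males with chronic cocaine (others 10.4 to 16.09). Hr in Nac had a single library at 24.0 CPM in group-housed females with chronic cocaine (others 14.8 to 17.17) and another at 22.62 CPM in isolated females with acute cocaine (others 11.01 to 15.13). Hr in PFC had a single library at 37.13 CPM in group-housed females with acute saline (others 13.36 to 23.4) and another at 25.87 CPM in isolated females with acute cocaine (others 13.57 to 18.66). Hr in VTA had a single library at 61.02 CPM in group-housed males with acute saline (apart, others 37.99 to 46.6).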

How the results depend on the processing

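Called differences of the 6 genes within regions kept their direction and stayed past the threshold in 83 of 102 recalculations, lost the call in 17 and changed sign in 2; counts of called members stayed within 1.5 times in 79 of 82. DESeq2, limma voom and RLE factors ended none of these calls within regions. With the number series as a covariate, the difference of Dio3 with chronic cocaine in PFC was 0.043, leaving 0 members called, and 0.072 within the 1200s. With that covariate all 5 calls of schedule under saline were lost and 1 other member was called; the values were -1.32 for Dio3 in AMY, -0.33 for Dio2 and -0.13 for Dio3 in PFC, and, with the sign changed, 0.056 for Dio2 in Nac and 0.13 in VTA. Schedule under cocaine for Dio2 in VTA was -0.30 without the libraries that stand apart, -0.075 with the covariate and -0.23 within the 1000s. The sex difference of Dio2 in PFC was -0.21 without the filter (1 member called), and -0.095, -0.24, -0.28 and -0.15 within the 500s, 1000s, 1100s and 1200s; that of Slco1c1 was -0.035, -0.19, -0.14 and -0.15, with fewer libraries in each such fit. Leaving out in turn each of 5 AMY libraries of isolated males given acute cocaine, schedule under cocaine in AMY ranged from -1.40 to -1.10 for Dio3 and from 0.36 to 0.42 for Hr. AMY minus VTA for Slco1c1 was -0.065 with RLE factors and -0.074 without the filter, and AMY minus Nac for Thra, not called, turned to 0.012 and 0.017. Among relations, r turned to -0.091 for Dio2 with Slco1c1 in Nac within the 500s, to -0.063 for Dio2 between AMY and Nac within the 1100s and to -0.34 for Slco1c1 between Nac and PFC within the 500s. The cause of these changes was not tested.

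Title numbers occur in several regions. Libraries of the same number deviated together only weakly, with a median r of 0.016 to 0.063 over genes by region pair. A number shared between regions always carried the same sex, housing, drug and schedule. A weak r between different regions cannot tell whether equal numbers mark the same animal, and the labels do not say. The main tests between regions took the libraries as independent. With the title number as a replicate block, and the dispersion trend of the group means, 1 of 36 region differences changed its call: AMY minus VTA for Dio2 was -0.14 (adjusted p = 0.0201), where it was -0.11 without the block.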
